A study of Mus musculus with 4 samples.

Results

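The genes described here were 9 genes of the smooth muscle contractile apparatus (Acta2, Actg2, Myh11, Myl9, Tagln, Cnn1, Cnn2, Tpm1 and Tpm2) and Srf, which encodes the transcription factor serum response factor. They were chosen by name, as a textbook set, but with earlier results of these data known. The shares of all expressed symbols given beside their counts are therefore description only. Each gene was found by matching its symbol to the RefSeq transcripts of the RNA-Seq files. The set held 10 of 22459 gene symbols and 20 of 29082 transcripts, and for each gene the transcript with the most reads over the 4 libraries was used. RNA-Seq was done on immortalized mouse brown preadipocytes at day 0, ahead of induction, and at day 2 of adipogenesis. The study asked how the histone H3K4 methyltransferase MLL4 (encoded by Mll4, also called Kmt2d) acts on gene expression while these cells turn into fat cells.

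All 4 libraries came from brown preadipocytes of E18.5 embryos on a C57BL/6J background that lacked Mll3 and carried floxed Mll4 alleles (Mll3-/- Mll4 f/f). The cells were immortalized with SV40 large T antigen (SV40T). They were infected with adenovirus expressing GFP (Ad-GFP), which leaves the Mll3-/- genotype, or with adenovirus expressing Cre (Ad-Cre), which gives Mll3-/- Mll4-/- cells. The labels call the Ad-GFP cells WT, although these too are Mll3-/-, so no library here had both enzymes intact. Day 0 was confluent culture before induction. Day 2 cells had been given insulin, T3, indomethacin, dexamethasone and IBMX. Each of the 4 conditions, Ad-GFP day 0, Ad-GFP day 2, Ad-Cre day 0 and Ad-Cre day 2, had 1 library, so no test between conditions was possible and no replicate error is known.

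Contractile cells pull on their surroundings through filaments of actin and myosin. Acta2 and Actg2 encode the vascular and enteric smooth muscle actins, Myh11 the smooth muscle myosin heavy chain and Myl9 its regulatory light chain. Tagln (transgelin, SM22), the calponins Cnn1 and Cnn2 and the tropomyosins Tpm1 and Tpm2 bind and stabilise actin filaments. SRF binds a DNA element called the CArG box in front of many of these genes. Its cofactors decide what it does there: myocardin (Myocd) drives the smooth muscle programme, and the myocardin-related factors MRTF-A (Mrtfa) and MRTF-B (Mrtfb) enter the nucleus when globular actin is used up. Actin stress fibres and Acta2 are known in cultured fibroblasts and preadipocytes too, and rounding of the cell with loss of stress fibres is a known early step of adipogenesis.

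The CArG box was searched as 2 C, 6 bases that are A or T, and 2 G, a pattern that reads alike on both strands, in the 250 bases before the gene start of the RefSeq promoter table (build GRCm38.p6). Of the 10 genes, 7 had an entry (Acta2, Myl9, Cnn1, Cnn2, Tpm1, Tpm2 and Srf). An exact box was present in 3 of the 7 (Myl9, Cnn2 and Srf), and a box with at most 1 mismatch in 5 of the 7. Over all 32851 promoters of the table, 482 (1.47%) held an exact box and 6117 (18.6%) a box with at most 1 mismatch. The Srf promoter held 2 exact boxes, and 6 of all promoters (0.0183%) held 2 or more. Genes outside the 10 held boxes too. An exact box was present in 3 of 12 non-smooth-muscle relatives (Actg1, Acta1 and Actc1). It was present in 2 of 13 other smooth muscle and stress fibre genes (Myl6 and Vcl). Of 5 skeletal muscle markers with an entry, 0 held an exact box and 3 a box with at most 1 mismatch. The stretches that hold the boxes are shown because the CArG box is the element that SRF binds. They are read from 5′ to 3′ on the strand of the gene, with the boxes in capitals, and lie at chr19:34255383-34255472 (-) for Acta2, chr2:156775288-156775389 (+) for Myl9, chr10:79988529-79988568 (+) for Cnn2, chr9:67049269-67049449 (-) for Tpm1 and chr17:46556177-46556259 (-) for Srf.
Acta2: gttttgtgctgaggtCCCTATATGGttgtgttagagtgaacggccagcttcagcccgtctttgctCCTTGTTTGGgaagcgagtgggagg
Myl9: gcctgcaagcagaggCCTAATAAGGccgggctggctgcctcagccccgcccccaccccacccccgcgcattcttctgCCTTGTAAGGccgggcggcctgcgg
Cnn2: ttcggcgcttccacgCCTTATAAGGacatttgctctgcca
Tpm1: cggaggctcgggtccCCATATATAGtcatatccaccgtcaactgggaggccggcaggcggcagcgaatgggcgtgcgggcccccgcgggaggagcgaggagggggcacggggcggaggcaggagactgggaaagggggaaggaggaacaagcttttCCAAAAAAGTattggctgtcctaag
Srf: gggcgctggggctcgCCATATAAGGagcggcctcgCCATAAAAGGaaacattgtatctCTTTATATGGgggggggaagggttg
The exact boxes lay 161 to 152 bases before the start of Myl9, 56 to 47 bases before that of Cnn2, and 82 to 73 and 62 to 53 bases before that of Srf. The boxes with 1 mismatch lay 84 to 75 and 34 to 25 bases before the start of Acta2, 99 to 90 before that of Myl9, 221 to 212 and 80 to 71 before that of Tpm1, and 39 to 30 before that of Srf. No box with at most 1 mismatch was present in the 250 bases before Cnn1 and Tpm2, which says only that these letters are not in this window. A match describes the sequence and does not show that SRF binds it.

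**Figure D1:**
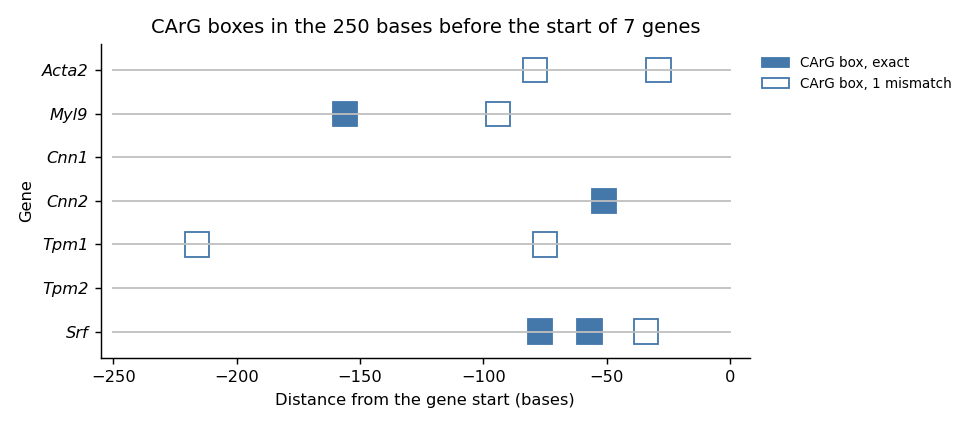
Position of CArG boxes in the 250 bases before the start of the 7 genes with an entry in the promoter table, with the distance from the gene start in bases on the x axis and 1 line per gene. Filled boxes match the pattern exactly (Myl9 1, Cnn2 1, Srf 2) and open boxes have 1 mismatch, and the lines of Cnn1 and Tpm2 hold none.

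The deposited counts summed to between 15831915 and 22099995 reads per library over all transcripts. Levels are given as the RPKM the authors deposited (reads per kilobase of exon, scaled to the mapped reads of the library), and ratios between libraries as log2 ratios with exact binomial 95% confidence intervals of the 2 read counts. These intervals cover counting error only, and compare the libraries, not the conditions. A gene was called higher or lower where its ratio was past 2.5-fold, the cutoff used in the study. Kmt2d, the targeted gene, had an RPKM of 18.5 and 18.7 in the Ad-GFP libraries and of 16.3 and 15.6 in the Ad-Cre libraries, and a count over the whole transcript does not check the deleted exons. In the Ad-Cre day 2 library the ratios moved with exon length: at day 2 the ratio between Ad-Cre and Ad-GFP had a median of 0.49 on the log2 scale in the shortest of 20 bins of exon length and -0.81 in the longest, while that of Ad-GFP day 2 to day 0 was 0.17 and 0.16. The counts and medians below were also computed with this trend subtracted.

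Each of the 10 genes had a lower level at day 2 than at day 0 in both cultures, and a higher level in the Ad-Cre than in the Ad-GFP culture on both days. The 10 genes together summed to an RPKM of 2338 in the Ad-GFP culture at day 0 and 129 at day 2, and to 5452 and 1005 in the Ad-Cre culture. Srf had the smallest change of the 10 genes from day 0 to day 2 in the Ad-GFP culture, and its level differed by less than 2.5-fold in each of the 4 comparisons.

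**Figure D2:**
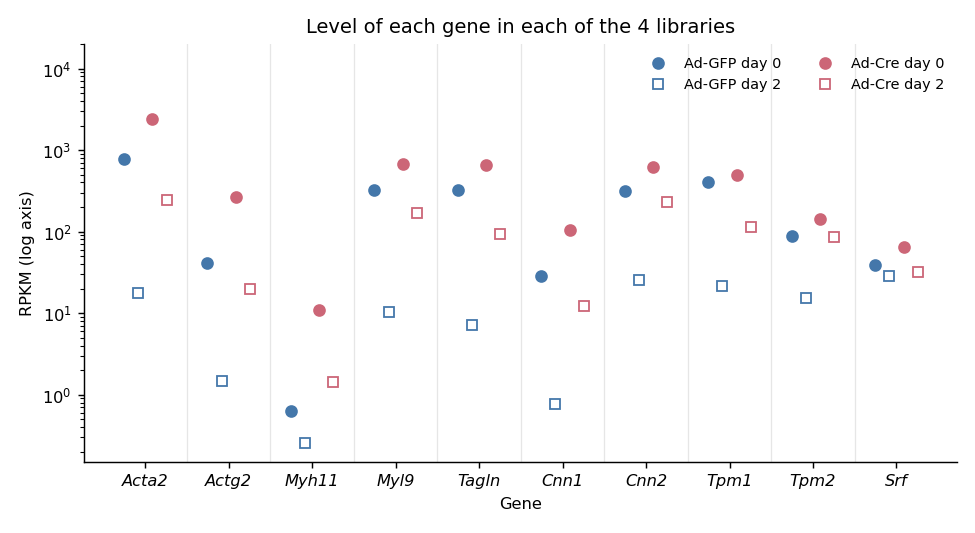
RPKM (log axis) of each of the 10 genes in each of the 4 libraries, with 1 point per library and gene. Filled circles are day 0 and open squares day 2, Ad-GFP in blue and Ad-Cre in red. For all 10 genes the Ad-GFP day 2 point is the lowest and the Ad-Cre day 0 point the highest, and the 4 points of Srf lie between 28.3 and 64.8.

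From day 0 to day 2 in the Ad-GFP culture, 8 of the 10 genes were lower past 2.5-fold and none was higher. Over the 11537 expressed symbols, those with an RPKM above 1 in at least 1 of the Ad-GFP libraries, 12.7% were lower and 8.37% higher. Myh11 is not among these symbols, and of the other 9 genes 8 were lower. The median log2 ratio of the 10 genes was -4.54, against 0.15 for all expressed symbols, and it ran from -5.48 (Tagln) to -0.46 (Srf). The interval of each of the 10 ratios lay below no change. With TMM factors, median-of-ratios size factors or the length trend subtracted 9 of the 10 genes were lower, Myh11 being the one added.

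From day 0 to day 2 in the Ad-Cre culture, again 8 of the 10 genes were lower and none was higher, with 10% of the expressed symbols lower and 8.67% higher. Without Myh11, 7 of 9 genes were lower. The genes that did not pass the cutoff were Tpm2 and Srf here, and Myh11 and Srf in the Ad-GFP culture. The median log2 ratio of the 10 genes was -2.46, against -0.01 for all expressed symbols, with a range from -3.76 (Actg2) to -0.72 (Tpm2). All 10 intervals lay below no change, and 8 of the 10 genes were lower with the length trend subtracted. With the sum of counts as denominator 7 were, Cnn2 coming to -1.27. The log2 ratio in the Ad-Cre culture minus that in the Ad-GFP culture was above 0 for 8 of the 10 genes, from 1.08 for Actg2 to 3.01 for Myl9, and below 0 for Myh11 (-1.61) and Srf (-0.56). Its median over the 10 genes was 2.13, and each of the 10 intervals left out 0 by counting error alone. For Srf this difference came to -0.13 with the length trend subtracted.

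Between the Ad-Cre and Ad-GFP cultures at day 0, 4 of the 10 genes (Acta2, Actg2, Cnn1 and Myh11) were higher past 2.5-fold and none was lower, with 1.27% of the expressed symbols higher and 4.12% lower. Over symbols expressed in any of the 4 libraries the higher share was 2.08%. Without Myh11, which is not among the expressed symbols, 3 of 9 were higher. The median log2 ratio of the 10 genes was 1.04 against -0.02 for all expressed symbols. It ran from 0.26 (Tpm1) to 4.11 (Myh11), and all 10 intervals lay above no change.

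Between the Ad-Cre and Ad-GFP cultures at day 2, 9 of the 10 genes were higher and none was lower, the exception being Srf, with 8.15% of the expressed symbols higher and 10.1% lower. With TMM factors in place of mapped reads these shares were 10.5% and 7.07%, and the median of all expressed symbols moved from -0.16 to 0.02. Without Myh11, 8 of 9 genes were higher. The median log2 ratio of the 10 genes was 3.43, with a range from 0.18 (Srf) to 4.05 (Myl9). Of the expressed symbols 0.641% had a ratio above that median. Symbols with an RPKM above 1 only in an Ad-Cre library are not part of these day 2 shares. With the length trend subtracted 9 genes were higher and the median was 3.35.

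**Figure D3:**
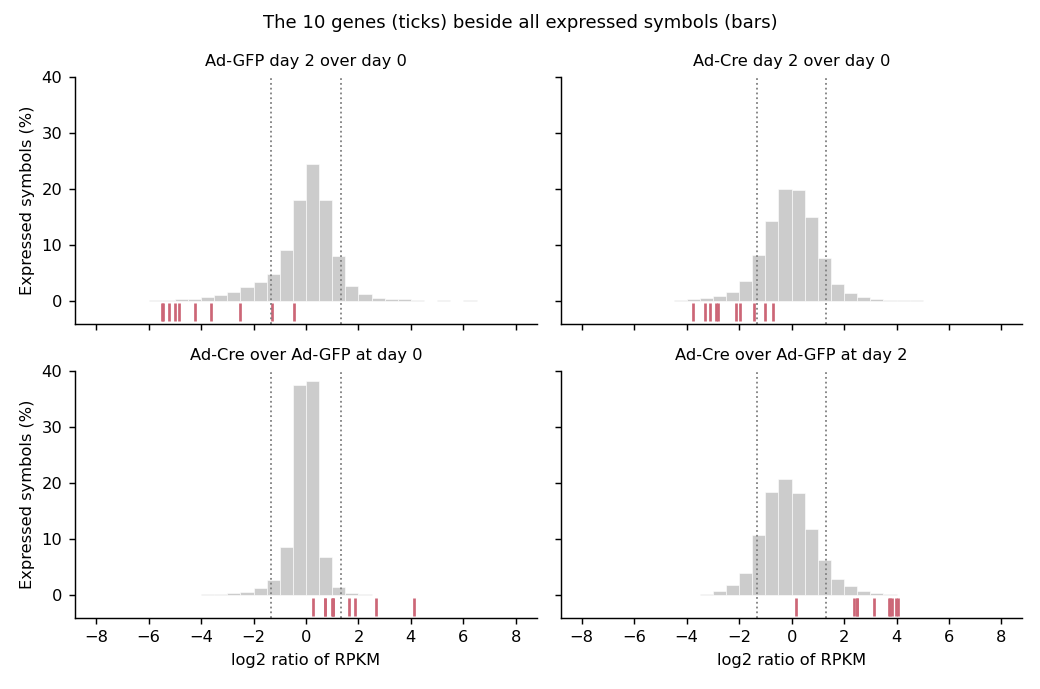
Log2 ratio of RPKM in 4 pairs of libraries (x axis) against the percent of the 11537 expressed symbols in bins of log2 width 0.5 (bars), with the 10 genes as ticks and the 2.5-fold cutoff as dotted lines. At day 2, 9 of the 10 ticks lie beyond the right cutoff and the tick of Srf lies at 0.18.

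Acta2 (RPKM per library) stood at 770 in the Ad-GFP culture at day 0, 17.5 in the Ad-GFP culture at day 2, 2428 in the Ad-Cre culture at day 0 and 247 in the Ad-Cre culture at day 2, on 23576, 714, 84322 and 7928 reads. By deposited RPKM Acta2 had rank 1 of all 22459 symbols in the Ad-Cre day 0 library and rank 15 in the Ad-GFP culture at day 0. At day 2 it had rank 94 in the Ad-Cre culture and 3612 in the Ad-GFP culture. Actb had 1976 RPKM in the Ad-Cre culture at day 0. Of windows as long as a read, 56.5% of those of Actb match elsewhere in the genome, against 2.88% for Acta2. The treatment of such reads is not given, so the rank of Acta2 above such genes is uncertain. The fall from day 0 to day 2 was 44.1-fold in the Ad-GFP culture (log2 ratio -5.46, 95% interval -5.57 to -5.36) and 9.83-fold in the Ad-Cre culture (log2 ratio -3.30, -3.33 to -3.26). Acta2 was thus 3.15-fold higher in the Ad-Cre than in the Ad-GFP culture at day 0 and 14.2-fold higher at day 2 (log2 ratio 3.82, 3.71 to 3.94). In bulk RNA, fewer cells of a type and less RNA of the gene in each cell cannot be told apart. The gene lies at chr19:34315580-34329826 (-) in build NCBI37/mm9 and has 9 exons.

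Actg2, the other smooth muscle actin, was present at 41.7 RPKM in the Ad-GFP culture at day 0, 1.46 in the Ad-GFP culture at day 2, 264 in the Ad-Cre culture at day 0 and 19.5 in the Ad-Cre culture at day 2. Only 44 reads stood behind the Ad-GFP day 2 value. Its excess in the Ad-Cre culture was already 6.34-fold at day 0 (log2 ratio 2.66, 2.56 to 2.76) and was 13.4-fold at day 2 (log2 ratio 3.74, 3.29 to 4.22). The change from day 0 to day 2 was the largest fall of the 10 genes in the Ad-Cre culture, 13.6-fold, against 28.6-fold in the Ad-GFP culture. Actg2 therefore differed less between the cultures in its change over time (1.08 on the log2 scale, 0.62 to 1.54) than Acta2 (2.17, 2.05 to 2.28). With 1 RPKM added to each value the difference for Actg2 came to 0.43. The gene lies at chr6:83462899-83486259 (-).

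Myh11, the myosin heavy chain used as a marker of mature smooth muscle, was low in the Ad-GFP culture, at 0.626 RPKM at day 0 (71 reads) and 0.257 at day 2 (39 reads). In the Ad-Cre culture it stood at 10.8 RPKM at day 0 (1387 reads) and 1.45 at day 2 (172 reads). It had the largest ratio of the 10 genes between the Ad-Cre and Ad-GFP cultures at day 0, 17.2-fold (log2 ratio 4.11, 3.76 to 4.47), and the ratio at day 2 was 5.62-fold (2.49, 1.98 to 3.03). It was the one contractile gene whose fall was larger in the Ad-Cre culture (7.45-fold, log2 ratio -2.90, -3.13 to -2.67) than in the Ad-GFP culture (2.43-fold, -1.28, -1.89 to -0.70), and the Ad-GFP value is short of the cutoff. This order was the same with the length trend subtracted, at -2.30 and -1.40. With 1 RPKM added, the log2 ratio between the Ad-Cre and Ad-GFP cultures came to 2.86 at day 0 and 0.96 at day 2, short of the cutoff, and that from day 0 to day 2 in the Ad-GFP culture came to -0.37. The 2 RefSeq transcripts of Myh11 had identical counts in every library and could not be separated. The gene lies at chr16:14194620-14291501 (-).

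Myl9, the light chain whose phosphorylation switches on contraction, had 323 RPKM in the Ad-GFP culture at day 0 and 667 in the Ad-Cre culture at day 0. At day 2 it had 10.2 in the Ad-GFP culture and 170 in the Ad-Cre culture. The fall was 31.6-fold in the Ad-GFP culture and 3.92-fold in the Ad-Cre culture, so that the 2.06-fold excess of day 0 (log2 ratio 1.04, 1.00 to 1.09) became 16.6-fold at day 2 (4.05, 3.87 to 4.24). The interval at day 2 lies inside that of Cnn1 (3.50 to 4.54), so the genes cannot be ranked. The log2 ratio over time differed between the cultures by 3.01 (2.82 to 3.20). Myl9 has the shortest exonic length of the 10 genes, and with the length trend subtracted its log2 ratio at day 2 was 3.68, below that of Cnn1 (3.98). The gene lies at chr2:156601156-156607394 (+).

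**Figure D4:**
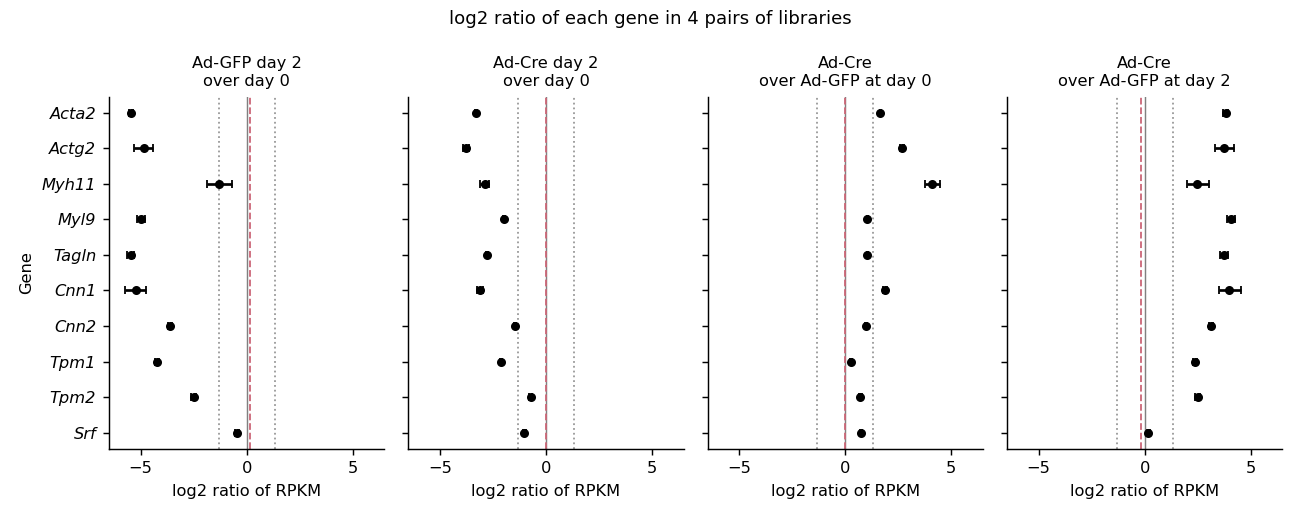
Log2 ratio of RPKM for each of the 10 genes in 4 pairs of libraries, with bars for the exact binomial 95% interval (counting error only), dotted lines at 2.5-fold and a dashed line at the median of all expressed symbols. All points lie left of 0 in the day 2 over day 0 panels and right of 0 in the Ad-Cre over Ad-GFP panels.

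Tagln, an early marker of smooth muscle, stood at 319 RPKM in the Ad-GFP culture at day 0, 7.16 in the Ad-GFP culture at day 2, 654 in the Ad-Cre culture at day 0 and 94.4 in the Ad-Cre culture at day 2. Its fall in the Ad-GFP culture was the largest of the 10 genes, 44.6-fold (log2 ratio -5.48, -5.66 to -5.30), and its interval overlaps that of Acta2. In the Ad-Cre culture the fall was 6.93-fold (log2 ratio -2.79, -2.85 to -2.74). The ratio of the Ad-Cre to the Ad-GFP culture was 2.05-fold at day 0, short of the cutoff, and 13.2-fold at day 2 (log2 ratio 3.72, 3.54 to 3.91). Tagln lies at chr9:45737711-45744141 (-).

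Cnn1, the calponin of differentiated smooth muscle, had 28.8 RPKM in the Ad-GFP culture at day 0 and 0.766 at day 2, the latter on 35 reads. In the Ad-Cre culture it had 105 at day 0 and 12.2 at day 2. It was 3.64-fold higher in the Ad-Cre culture at day 0 (log2 ratio 1.86, 1.76 to 1.96) and 15.95-fold higher at day 2 (3.996, 3.50 to 4.54). The size of ratios on the Ad-GFP day 2 value depends on its low level. With 1 RPKM added, the log2 ratio of Cnn1 from day 0 to day 2 in the Ad-GFP culture moved from -5.23 to -4.07. Cnn2, the calponin found more widely outside muscle, was more abundant per length than Cnn1 in all 4 libraries, at 317 and 25.8 RPKM in the Ad-GFP culture and 624 and 229 in the Ad-Cre culture at day 0 and day 2. It fell 12.3-fold in the Ad-GFP culture and 2.73-fold in the Ad-Cre culture. Its excess in the Ad-Cre culture was 1.97-fold at day 0 and 8.86-fold at day 2 (log2 ratio 3.15, 3.05 to 3.24). For Cnn2, 15.5% of the 50-base windows of the transcript match elsewhere in the genome with at most 2 mismatches, against 4.28% or less for the other 9 genes, and the treatment of such reads is not given in the sources used here. Cnn1 lies at chr9:21903725-21914074 (+) and Cnn2 at chr10:79451329-79458807 (+).

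Tpm1 was the contractile gene with the smallest difference between the cultures at day 0. The transcript used, NM_024427, had 411 RPKM in the Ad-GFP culture and 492 in the Ad-Cre culture at day 0 (log2 ratio 0.26, 0.23 to 0.29), and 21.8 and 113 at day 2. At day 2 the ratio was 5.20-fold (log2 ratio 2.38, 2.27 to 2.49). The fall was 18.9-fold in the Ad-GFP culture and 4.35-fold in the Ad-Cre culture. Tpm1 makes many isoforms by alternative splicing, and its 10 RefSeq transcripts share exons and therefore reads. Their log2 ratios ran from -4.61 to -3.26 for day 2 over day 0 in the Ad-GFP culture and from 1.32 to 2.48 for Ad-Cre over Ad-GFP at day 2, the lower end of the latter just past the cutoff. Tpm1 lies at chr9:66870397-66897213 (-).

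Tpm2 had smaller ratios over time than Tpm1 in both cultures. It had 87.5 RPKM at day 0 and 15.4 at day 2 in the Ad-GFP culture, a 5.67-fold fall. In the Ad-Cre culture it had 143 at day 0 and 86.8 at day 2, a ratio of 1.65-fold that did not pass the cutoff (log2 ratio -0.72, -0.78 to -0.66). At day 2 Tpm2 in the Ad-Cre culture stood at 86.8 RPKM and in the Ad-GFP culture before induction at 87.5. The ratio of the Ad-Cre to the Ad-GFP culture was 1.63-fold at day 0 and 5.63-fold at day 2 (log2 ratio 2.49, 2.38 to 2.61). Tpm2 lies at chr4:43527583-43536637 (-).

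Srf, the factor itself, had 38.9 RPKM in the Ad-GFP culture at day 0, 28.3 in the Ad-GFP culture at day 2, 64.8 in the Ad-Cre culture at day 0 and 32.0 in the Ad-Cre culture at day 2, on 2360 to 5173 reads. The highest value was that of the Ad-Cre culture at day 0 and the lowest that of the Ad-GFP culture at day 2, as for the contractile genes, over a range of less than 2.5-fold. Srf was 1.67-fold higher in the Ad-Cre culture at day 0 (log2 ratio 0.74, 0.67 to 0.80). At day 2 the log2 ratio was 0.18 (0.09 to 0.26), and other scalings and the length trend subtracted gave 0.31 to 0.60, all above 0 and short of the cutoff. Srf ranked 8 of the 10 genes by RPKM in the Ad-GFP culture at day 0 and 1 of the 10 at day 2, where all 9 others had lower levels. The gene lies at chr17:46683788-46693111 (-).

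The order of the genes by RPKM was close in both cultures at day 0, with Acta2 first and Myh11 last. In the Ad-GFP culture at day 0 Tpm1, Myl9, Tagln and Cnn2 followed Acta2 at 411 to 317 RPKM, and Myl9, Tagln and Cnn2 (323, 319 and 317) lay side by side. In the Ad-Cre culture at day 0 Myl9, Tagln and Cnn2 (667, 654 and 624) came before Tpm1 (492). With 1 library per condition the spread around this order is not known, and these 3 neighbours cannot be ranked.

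The SRF cofactors were described from a list of 9 genes of the SRF pathway written as textbook members. Myocd was at the detection limit, with 1 to 5 reads per library and at most 0.0501 RPKM. Mrtfa, the actin-sensing cofactor, had 34.5 RPKM at day 0 and 19.4 at day 2 in the Ad-GFP culture, and 46.3 and 53.5 in the Ad-Cre culture. Its ratio of the Ad-Cre to the Ad-GFP culture was 1.34-fold at day 0 and 2.76-fold at day 2 (log2 ratio 1.47, 1.39 to 1.54). Mrtfb, its relative, had 9.30 RPKM in the Ad-GFP culture and 4.39 in the Ad-Cre culture at day 2, a log2 ratio of -1.08 that was short of the cutoff and came to -0.27 with the length trend subtracted. The LIM proteins Csrp1, Csrp2 and Fhl2, which bind SRF or the actin cytoskeleton, were 2.76-fold, 4.24-fold and 3.82-fold higher in the Ad-Cre culture at day 2. In all, 8 of the 9 genes were expressed. Of these 4 were lower at day 2 in the Ad-GFP culture and 3 in the Ad-Cre culture, against 12.7% and 10% of all expressed symbols. None of the 8 passed the cutoff between the cultures at day 0. That is near the shares of all expressed symbols, 1.27% higher and 4.12% lower. At day 2, 4 were higher in the Ad-Cre culture (Mrtfa and the 3 LIM proteins) and none was lower, against 8.15% and 10.1% of all expressed symbols. Csrp2, 1 of the 4 genes lower at day 2 in the Ad-GFP culture (log2 ratio -1.34), was short of the cutoff with the sum of counts (-1.29).

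Other smooth muscle and stress fibre genes were followed with a list of 13, of which 9 were expressed. In the Ad-GFP culture 7 of the 9 were lower at day 2, with a median log2 ratio of -2.56. In the Ad-Cre culture 6 of the 9 were, with a median of -1.85. Of all expressed symbols, 12.7% and 10% were lower. Between the cultures none passed the cutoff at day 0, near the shares of all expressed symbols (1.27% higher and 4.12% lower). At day 2, 4 of the 9 were higher in the Ad-Cre culture (Lmod1, Cald1, Myl6 and Pdlim7) and 2 were lower (Mylk and Vcl). Of all expressed symbols, 8.15% were higher and 10.1% lower. Lmod1, leiomodin, which starts actin filaments in smooth muscle, went from 9.87 to 0.430 RPKM in the Ad-GFP culture and from 23.3 to 4.64 in the Ad-Cre culture, and was 10.8-fold higher in the Ad-Cre culture at day 2 (log2 ratio 3.43, 2.95 to 3.95). Mylk, the kinase that phosphorylates Myl9, did not share this pattern and stood at 1.61 and 3.78 RPKM in the Ad-GFP culture at day 0 and day 2 and at 1.01 and 1.12 in the Ad-Cre culture. Vcl, vinculin, which ties actin to focal adhesions, had 73.9 and 58.7 RPKM in the Ad-GFP culture and 87.7 and 18.7 in the Ad-Cre culture, and its ratio at day 2 was -1.65 on the log2 scale (-1.73 to -1.58). Both have long transcripts, and with the length trend subtracted their log2 ratios at day 2 were -0.95 and -1.01, short of the cutoff, while those of Flna (filamin A) and Actn1 (alpha-actinin) were 1.78 and 1.70, past it. Actn1 was also past it with TMM factors (1.38), median-of-ratios size factors (1.40) and the sum of counts (1.33).

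Among the non-smooth-muscle relatives of the 10 genes (13 genes, 12 expressed), 10 were lower at day 2 in the Ad-GFP culture and 7 in the Ad-Cre culture, where 1 (Myl12b) was higher, though not with the length trend subtracted (log2 ratio 0.62). With that trend subtracted Myh9 (-1.29) no longer counted among the lower genes of the Ad-Cre culture, while Cnn3 (-1.37) and Myl12a (-1.44) did. Between the cultures 2 of the 12 were higher in the Ad-Cre culture at day 0 and 3 at day 2. Of the 3, Myl12b was short of the cutoff with the length trend subtracted (log2 ratio 1.09). Of all expressed symbols, 12.7% were lower at day 2 in the Ad-GFP culture. In the Ad-Cre culture 10% were lower and 8.67% higher. Between the cultures 1.27% were higher in the Ad-Cre culture at day 0 and 8.15% at day 2. The sarcomeric actins Acta1 and Actc1, known from skeletal and cardiac muscle, followed the smooth muscle actins at a lower level. Acta1 had 18.4, 0.364, 48.5 and 3.41 RPKM in Ad-GFP day 0, Ad-GFP day 2, Ad-Cre day 0 and Ad-Cre day 2, and 9.35-fold more in the Ad-Cre culture at day 2 (log2 ratio 3.22, 2.35 to 4.23). Actc1 had 10.2, 0.0939 (3 reads), 30.3 and 2.07 RPKM in the same order. Actb, cytoplasmic beta-actin, fell 4.37-fold in the Ad-GFP culture from 1731 to 396 RPKM, and had 2.37-fold more RPKM in the Ad-Cre culture at day 2, short of the cutoff. It passed the cutoff with TMM factors (log2 ratio 1.43), median-of-ratios size factors (1.45) and the sum of counts (1.38). With the length trend subtracted it came to 1.11, again short of it. Of the windows of Actb, Tpm3, Tpm4, Cnn3, Myl12b and Actg1, 56.4% to 97.6% match elsewhere, so their levels are uncertain.

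Genes that MRTF and SRF, or growth factor signals, are known to switch on were followed with 2 lists. Of all expressed symbols, 12.7% were lower at day 2 in the Ad-GFP culture and 10% in the Ad-Cre culture. Of 7 MRTF targets 6 were found, all expressed. Of these 5 were lower at day 2 in each of the cultures, with medians of -3.43 and -3.30 on the log2 scale. The matricellular genes Ccn1 and Ccn2 were 3.72-fold and 6.24-fold higher in the Ad-Cre culture at day 0 and 5.00-fold and 3.72-fold higher at day 2, and the other 4 did not pass the cutoff between the cultures. Ccn2 had 145 RPKM in the Ad-Cre culture at day 0 and 1.69 at day 2, an 85.9-fold fall, against 51.2-fold in the Ad-GFP culture. Of the immediate early genes 6 of 8 were expressed, and in each of the cultures 2 of the 6 were lower at day 2. In the Ad-Cre culture 1 of these, Egr1 (log2 ratio -1.42), was short of the cutoff with the sum of counts (-1.24) and with the length trend subtracted (-1.26). Junb fell 4.02-fold in the Ad-GFP culture, from 60.1 to 14.9 RPKM, and stood at 46.9 and 57.8 in the Ad-Cre culture. At day 2, 2 of the 6 (Junb and Ier2) were higher in the Ad-Cre culture, Ier2 falling short of the cutoff with the length trend subtracted (log2 ratio 1.24). None of the 6 passed the cutoff between the cultures at day 0, near the shares of all expressed symbols (1.27% higher and 4.12% lower). At day 2 the shares of all expressed symbols were 8.15% higher and 10.1% lower.

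**Figure D5:**
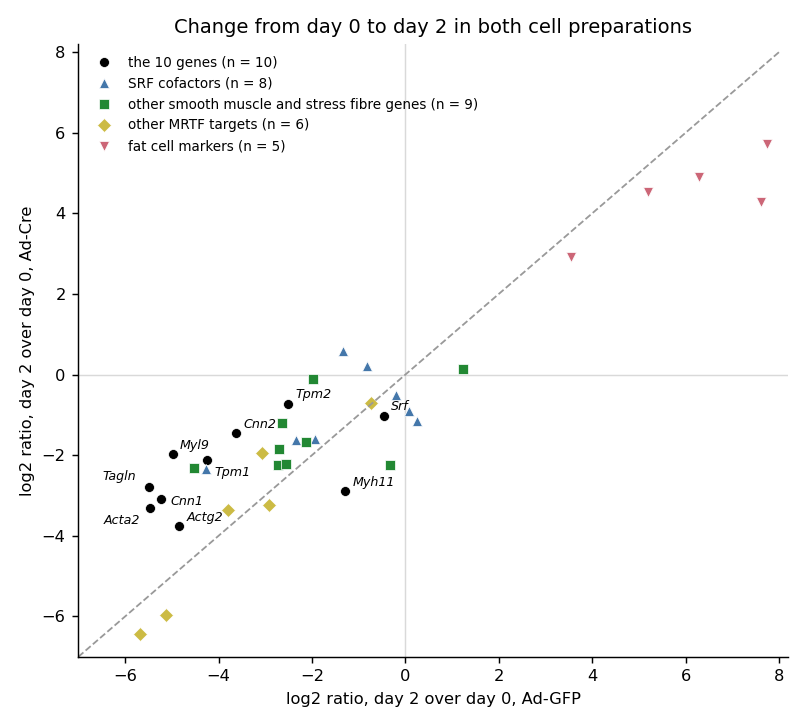
Log2 ratio of day 2 over day 0 in the Ad-GFP culture (x axis) against the same in the Ad-Cre culture (y axis), for the 10 genes (black, named) and the expressed genes of 4 lists, with a dashed line where both are equal. Of the 10 genes 8 lie above the line and Myh11 and Srf below it, and the 5 fat cell markers lie at the upper right, below the line.

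The genes that mark other cell types were read beside these results. Over time, and between the cultures at day 2, the fat cell markers moved the opposite way to the contractile genes. All 5 expressed markers (Pparg, Cebpa, Fabp4, Adipoq and Lpl) were higher at day 2 in each of the cultures. All 5 were lower in the Ad-Cre than in the Ad-GFP culture at day 2. Between the cultures at day 0 only Pparg was lower past the cutoff, and 3 of the 5 intervals lay below no change. Those of Fabp4 (log2 ratio 0.02) and Adipoq (1.04, -1.09 to 3.62) did not. The summed RPKM of the fat cell markers was 29.9 and 1946 in the Ad-GFP culture and 15.3 and 474 in the Ad-Cre culture at day 0 and day 2. Ucp1 was at or near 0. Pericyte markers were higher in the Ad-Cre culture at day 0 for 2 of the 3 expressed (Mcam and Cspg4). The summed RPKM of the 4 markers was 108, 42.3, 235 and 49.1 in Ad-GFP day 0, Ad-GFP day 2, Ad-Cre day 0 and Ad-Cre day 2. The largest part of each sum was Pdgfrb (89.9, 39.3, 123 and 41.9), which did not pass the cutoff between the cultures. Mcam had 96.4 RPKM in the Ad-Cre culture and 12.5 in the Ad-GFP culture at day 0, while Rgs5, a defining pericyte marker, was at most 0.216. Markers of mesenchymal precursors were lower in the Ad-Cre culture at day 0 for 3 of 4 (Pdgfra, Ly6a and Cd34). The summed RPKM of the 4 was 389, 55.4, 193 and 69.9 in the same order. The largest part of each sum was Thy1 (294, 40.8, 183 and 59.8), which did not pass the cutoff between the cultures. Pdgfra had 73.6 RPKM in the Ad-GFP culture and 9.72 in the Ad-Cre culture at day 0. Of all expressed symbols, 8.37% and 8.67% were higher at day 2 in the Ad-GFP and Ad-Cre cultures. Between the cultures 1.27% were higher and 4.12% lower in the Ad-Cre culture at day 0, and 10.1% were lower at day 2. The part of the cell type markers in the results on the contractile genes was not tested. Markers of skeletal muscle summed to at most 2.47 RPKM and of endothelium to at most 0.0971, and the immune markers found were at 0 reads in all 4 libraries.

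The genes whose pattern over the 4 libraries was nearest to the members' median were named by the root mean square difference of centred log2 RPKM, over 8623 symbols with at least 100 reads in each library and 7 of the 10 genes. They were Dpysl3 (0.21), Col1a2 (0.22), Tuba1a (0.23), Pcdh18 (0.31) and Mir100hg (0.31). Of the 7 members, Tpm1 had 0.16, Cnn2 0.34, Myl9 0.58, Tpm2 0.70, Tagln 0.70, Acta2 0.90 and Srf 1.43. All of these members but Tpm1 thus lay further from the members' median than the genes named. Col1a2, a chain of type I collagen, had 249, 22.5, 403 and 110 RPKM in Ad-GFP day 0, Ad-GFP day 2, Ad-Cre day 0 and Ad-Cre day 2. Tuba1a, an alpha-tubulin, had 146, 5.82, 205 and 44.7 in the same order. These are likenesses over 4 libraries and carry no test.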

How the data were processed

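RNA-Seq was analysed from 4 libraries, 1 per condition, grouped by the labels. The authors aligned 50-base reads to NCBI37/mm9 with the Illumina Analysis Pipeline and collected those on exons of RefSeq transcripts. Per transcript, the authors deposited raw counts, in whole numbers, and RPKM, the count per kilobase of exon scaled to mapped reads. The treatment of reads with several matches and the use of strand are not given in the sources used here. The submitters' processing notes also name SICER 1.1 and bedtools 2.16. Transcripts were matched to symbols through the RefSeq gene table (97.8% matched), with 1 transcript per symbol, that with the most reads. Symbols counted as expressed passed 1 RPKM in at least 1 Ad-GFP library. Ratios were computed with scipy 1.17.1 and pandas 2.3.3 in Python 3.11.15, from RPKM, with exact binomial 95% intervals of the counts and at least 3 reads in 1 of the libraries compared. Exon lengths came from counts, RPKM and the mapped-read totals the study states. Matches of 50-base windows elsewhere in the genome were found by blastn 2.17.0. TMM factors (edgeR 4.0.16) and median-of-ratios size factors (DESeq2 1.42.0, R 4.3.3) served as alternative scalings, and no edgeR or DESeq2 test was run. The other alternatives were the sum of counts as denominator, 1 RPKM added, read minimums of 20 and none, other transcripts per gene and cutoffs of 2-fold and 4-fold. The scripts were tested on simulated data. The genes named are the 10 genes, the 11 lists (75 of 77 symbols found) and the 5 nearest profiles. The genes and lists were chosen with earlier results of these data known.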

Additional observations from a re-analysis of the deposited data

Results flagged for a closer look

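No condition has a replicate, so samples could not be screened for outliers. Among the 10 genes none moved in opposite directions between days or cells. The following 12 genes of the lists did, with both counting intervals leaving out no change, and the difference between the ratios was not tested against replicates.

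For the ratio of Ad-Cre to Ad-GFP, the log2 ratio at day 2 minus that at day 0 was 6.01 for Cd34 (-4.98 at day 0, on 18 reads in the Ad-Cre culture, and 1.03 at day 2). It was 2.31 for Junb, 2.15 for Myl12b, 1.27 for Tpm3, 1.24 for Thy1 and 1.14 for Zyx, each below no change at day 0 and above it at day 2. It was -1.90 for Vcl, -1.41 for Elk1 and -0.78 for Mcl1, each above no change at day 0 and below it at day 2. The sign of Mcl1 at day 2 (-0.12) turned with TMM factors (0.06), median-of-ratios size factors (0.08), the sum of counts (0.01) and the length trend subtracted (0.38). Reads of Myl12b and Tpm3 may match other loci, as given above.

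For the change from day 0 to day 2, Ad-Cre minus Ad-GFP was 6.01 for Cd34, 2.67 for Ly6a (4 reads in the Ad-Cre culture at day 0), 2.31 for Junb, 2.15 for Myl12b, 1.91 for Csrp2 and 1.04 for Mrtfa. These genes were below no change in the Ad-GFP culture and above it in the Ad-Cre culture, and with the length trend subtracted the value of Csrp2 in the Ad-Cre culture turned from 0.57 to -0.14. It was -1.41 for Elk1, at 0.25 in the Ad-GFP culture and -1.16 in the Ad-Cre culture.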

How the results depend on the processing

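No replicate could be left out and no paired analysis was possible because each condition has 1 library. Over the alternatives run, no log2 ratio of the 10 genes and no median changed sign. Calls at 2.5-fold changed for Myh11 (gained in Ad-GFP over time under 3 settings, lost at day 2 with 1 RPKM added). They also changed for Cnn2 (lost in Ad-Cre over time with the sum of counts). A 4-fold cutoff left 2 of 4 genes between Ad-Cre and Ad-GFP at day 0 and 6 of 8 in Ad-Cre over time. A 2-fold cutoff gave 6 genes between Ad-Cre and Ad-GFP at day 0, and 9 over time in each of the cultures. Several medians of log2 ratios moved by more than the counting error. With 1 RPKM added they came to -4.10 (Ad-GFP day 2 over day 0), -2.19 (Ad-Cre day 2 over day 0), 2.98 (Ad-Cre over Ad-GFP at day 2) and 1.89 (the difference in change between the cultures). With the sum of counts the Ad-Cre day 2 over day 0 median was -2.28. At day 2 the Ad-Cre over Ad-GFP median was 3.62 with TMM factors and 3.64 with median-of-ratios size factors, and the difference in change was 2.30 with the latter. Subtracting the length trend, chosen after seeing the data, gave -2.54 (Ad-Cre day 2 over day 0), 1.12 (Ad-Cre over Ad-GFP at day 0) and 1.92 (difference in change). Depth limits chiefly Cnn1, Myh11 and Actg2 in the Ad-GFP culture at day 2, with 35, 39 and 44 reads. The share of expressed symbols higher at day 0 was 2.08% with symbols expressed in any of the 4 libraries.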
